A study of Mus musculus with 7 samples.

Results

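The microRNAs described here are 45 mature microRNAs of the Dlk1-Dio3 imprinted cluster, out of 611 mouse microRNAs on an Agilent array. They were chosen by name, as the array rows that carry 1 of 45 listed names, each with the prefix mmu for mouse. In the RefSeq annotation of GRCm38.p6 all 45 belong to genes that lie between Dlk1 and Dio3 on mouse chromosome 12. They come from 40 genes and were read by 112 probes. All 44 with a hairpin entry in that annotation lie on the plus strand. In map order 10 members lie between the long RNA genes Meg3 and Rian, 2 lie at Rian, and 33 lie in the long stretch from miR-379 to miR-410. No coordinates are given because the array files name another mouse build.

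Whole kidneys were taken from males aged 3.5 to 4 weeks and snap-frozen, with 100 ng of total RNA labelled with Cy3 for each array. The groups were 4 wild-type mice (mgb+/+, mice 1 to 4) and 3 homozygous megabladder mice (mgb-/-, mice 2 to 4), with 1 array per mouse and no drug or surgical treatment named. The design text gives 4 mutant kidneys. Mouse 1 of that genotype was not analysed here. The megabladder line carries an inherited loss of bladder smooth muscle, so the bladder empties poorly and urine backs up into the kidneys. The mutation is present in every cell of the animal, so a kidney difference may be direct or may follow the obstruction. A microRNA array does not measure the disturbed gene and cannot check the genotype.

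Imprinted genes are read from only 1 of the parental chromosomes. In the Dlk1-Dio3 region the protein genes Dlk1, Rtl1 and Dio3 are expressed from the paternal chromosome, and the long RNAs Meg3, Rian and Mirg with their microRNAs from the maternal chromosome. The microRNAs between Meg3 and Rian include several that lie opposite Rtl1 and can target its messenger RNA, among them miR-127, miR-136, miR-431, miR-433 and miR-434. The microRNAs from miR-379 to miR-410 are processed from a long maternal transcript. The cluster is known for high expression in embryo, placenta and brain. One of its best studied roles is in neurons, where miR-134 restrains Limk1, a kinase of the actin skeleton in dendritic spines.

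A microRNA finds its targets mainly through its seed, bases 2 to 8 from the 5′ end. The mature sequences of the members on which the results turn have the seed in capitals. miR-494 was the member above background on every kidney array.
mmu-miR-494: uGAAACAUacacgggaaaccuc
miR-668 was the member nearest to the detection limit on most arrays.
mmu-miR-668: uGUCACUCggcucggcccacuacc
The next 11 members stood out on the array of megabladder mouse 3, and are given in map order.
mmu-miR-337-3p: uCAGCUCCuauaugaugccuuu
mmu-miR-127: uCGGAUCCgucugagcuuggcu
mmu-miR-434-3p: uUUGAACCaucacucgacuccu
mmu-miR-136: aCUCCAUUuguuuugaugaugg
mmu-miR-379: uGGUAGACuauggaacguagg
mmu-miR-411: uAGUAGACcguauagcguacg
mmu-miR-329: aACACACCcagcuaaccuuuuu
mmu-miR-376a: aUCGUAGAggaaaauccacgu
mmu-miR-300: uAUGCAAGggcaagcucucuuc
mmu-miR-154: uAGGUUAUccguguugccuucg
mmu-miR-410: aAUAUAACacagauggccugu
The last sequence is the close relative miR-376b, whose mean over its probes stayed low on that array.
mmu-miR-376b: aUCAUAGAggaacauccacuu

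Sequences came from RefSeq (GRCm38.p6) for 42 of 45 members, of which 14 matched by the same name and 28 by the arm that bore the plain name in earlier naming. miR-376c, miR-487b and miR-485 are given by name. The 42 seeds were all distinct, so no pair of members shared one. In 3 pairs the seeds differed at 1 base of 7: miR-379 with miR-411, miR-376a with miR-376b, and miR-300 with miR-381. The GC content of the 11 members that stood out on megabladder mouse 3 had a median of 45.5% (36.4% to 59.1%), against 50% (23.8% to 68.2%) for the other 31 members with a sequence.

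The arrays read kidney. Of 9 tubule microRNAs listed as markers, 8 were above background on every array, as were 5 of 5 epithelial and 2 of 2 endothelial ones. Each array detected 190 to 210 mouse microRNAs. The array's 75th percentile of signal over probes detected on every array, used for scaling, ranged from 371 to 524 units (wild-type) and from 244 to 337 units (megabladder). These did not overlap and differed by -0.63 on the log2 scale (p = 0.0286 in a 2-sided exact permutation test, the lowest value 35 splits can give). The tubule markers summed to between 6069 and 9076 units (wild-type) and between 3951 and 5471 units (megabladder). By the array labels, the wild-type arrays lay in 1 row of the slide and the megabladder arrays in the other. If they lay so, row and genotype cannot be told apart. On the first principal component (70.9% of variance) wild-type mice 3 and 4 stood at 7.10 and 6.86, apart from the other 5 arrays at -3.90 to -0.64.

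Few cluster microRNAs were measurable in these kidneys. A probe counted as detected where at least 0.5 of its spots carried the scanner software's mark for signal well above background. On this measure 5 of 45 members (11.1%) were detected on at least 1 array, against 236 of the 566 other mouse microRNAs (41.7%). On at least 3 arrays the numbers were 1 member and 212 others (37.5%), and on all 7 arrays 1 member and 163 others (28.8%). By probe, 10 of 112 member probes (8.93%) and 451 of 1647 other probes (27.4%) were detected somewhere. The 5 detected members were miR-494, miR-668, miR-376c, miR-127 and miR-136. Only miR-494 was detected on more than 1 array. Without megabladder mouse 3 the count of detected members was 3, and it was 11 if 1 spot sufficed.

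The other 40 members did not meet this rule, and 34 members had no spot at all well above background. The median member signal was -0.79 to 0.23 units per array, and the median of all other mouse microRNAs was 0.59 to 1.68 units. The difference of those medians was -1.46 ± 0.49 units (SD, n = 7 arrays). Negative control spots, which carry no mouse microRNA target, had means of 0.11 to 1.34 units and spot SDs of 1.62 to 2.11 units. On each array 25 to 39 of 45 members lay below that array's negative control mean. Other microRNAs that were never detected had array medians of -1.04 to -0.42 units. The median of all 45 members, detected ones included, was 0.50 ± 0.29 units (SD, n = 7 arrays) higher than theirs. Only the others were chosen for low signal there, so the 2 sets are not alike. Signals of different probes depend on their sequence as well as on amount, so these medians describe brightness and not copy number. A low signal in whole kidney cannot tell fewer expressing cells from less RNA per cell.

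**Figure D1:**
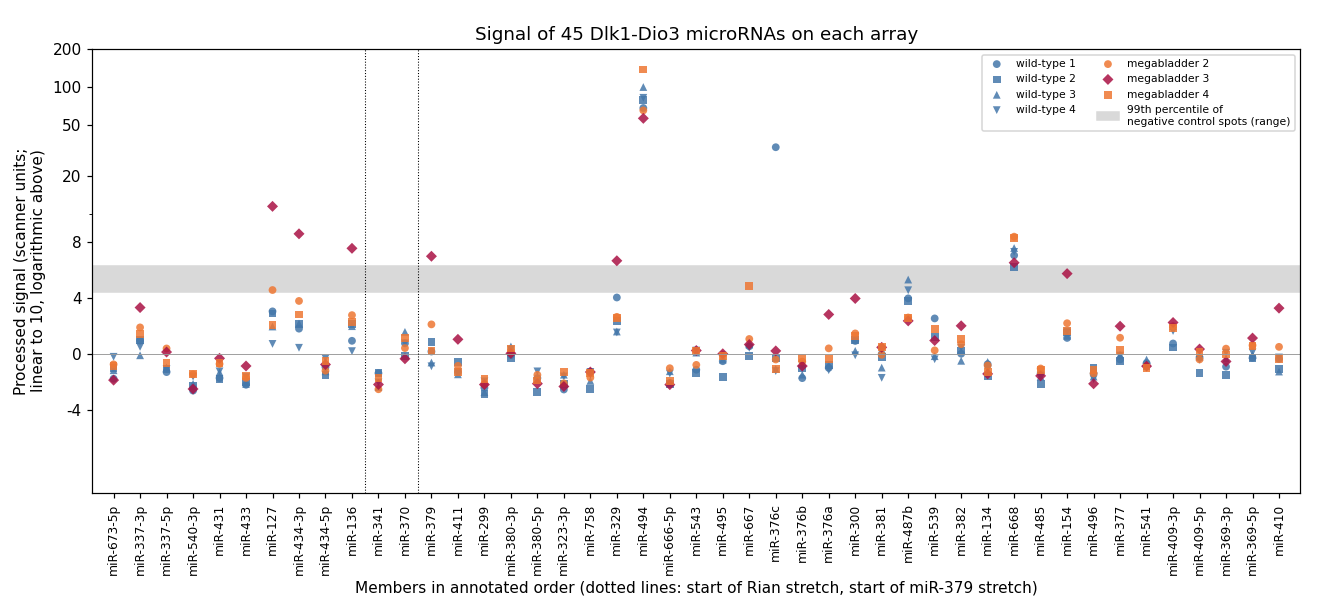
Processed signal in scanner units of each of the 45 members (horizontal axis, map order) on each of the 7 arrays, 1 point per array, on an axis that is linear to 10 and logarithmic above. The grey band spans the 99th percentile of negative control spots over the arrays, 4.43 to 6.28 units. miR-494 lies above the band on every array, miR-668 at or just above its upper edge (6.21 to 8.35 units), miR-376c on wild-type mouse 1 alone, and several members on megabladder mouse 3 (diamonds).

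miR-494 had the highest mean signal of the members. Its first probe (A_54_P2824) read 99.5, 115, 146 and 120 units in wild-type mice 1 to 4 and 94.9, 80.3 and 197 units in megabladder mice 2 to 4. Its second probe (A_54_P4400) read 37.5, 42.4, 55.4 and 45.5 units in wild-type and 36.3, 33.2 and 79.1 units in megabladder mice. Both probes put megabladder mouse 4 highest and megabladder mouse 3 lowest, so the groups overlapped. All spots of both probes were well above background on all 7 arrays.

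After scaling, the level of miR-494 was 5.81, 5.72, 5.96 and 6.18 log2 units in wild-type mice 1 to 4 and 6.28, 5.80 and 7.54 log2 units in megabladder mice 2 to 4. The means were 5.92 ± 0.20 (SD, n = 4) and 6.54 ± 0.90 (SD, n = 3). The difference, megabladder minus wild-type, was 0.62 on the log2 scale (SE 0.38, 95% interval -0.28 to 1.52). It did not pass the test (adjusted p = 0.419 over 213 microRNAs, limma; 2-sided exact permutation p = 0.171). In that fit 15 of 213 microRNAs passed (7.04%), with 14 higher (6.57%) and 1 lower (0.469%) in megabladder kidneys, and none of them was one of the 45 members. Those counts turned with scaling: unscaled signals gave 1 higher and 68 lower, while quantile normalization and the percentile over all mouse probes each left 0 calls (45 and 96 at an unadjusted p under 0.05 in limma). miR-494 was the 1 member with enough detected arrays to enter the fit. Without megabladder mouse 4 its difference was 0.12, and on unscaled signals it was -0.011 (interval -0.73 to 0.71).

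**Figure D2:**
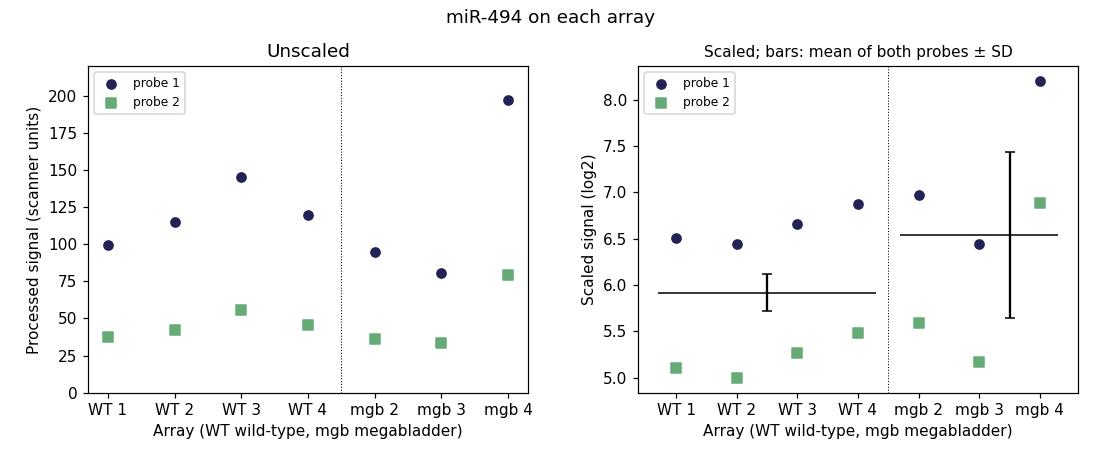
Signal of the 2 miR-494 probes on each array, unscaled in scanner units (left) and scaled on a log2 axis (right). In the right panel horizontal lines mark the mean over both probes in each genotype and bars its SD (n = 4 wild-type, n = 3 megabladder). Megabladder mouse 4 is highest in both panels.

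The annotated neighbours of miR-494 were not detected. In map order miR-329 comes before it, and miR-679, miR-1193, miR-666 and miR-543 follow. miR-543 read -1.37 to 0.23 units over the 7 arrays and miR-666-5p read -2.20 to -1.03 units. miR-679 and miR-1193, cluster microRNAs outside the 45 names, read -1.82 to -0.87 and -0.82 to 0.59 units. miR-329 read 1.52 to 6.63 units, highest on megabladder mouse 3. All of them stayed short of the detection rule on all 7 arrays.

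miR-668 lay close to the detection limit throughout. Its mean over 4 probes was 7.02, 6.21, 7.54 and 7.26 units in wild-type mice 1 to 4 and 8.35, 6.49 and 8.24 units in megabladder mice 2 to 4. The groups overlapped. Only megabladder mouse 4 met the detection rule, where 100% of spots of 1 probe and 75% of another were well above background, while the software's own call per microRNA marked it on 6 arrays. In the authors' deposited table miR-668 stood at 20, the table's floor, on wild-type mouse 2 and at 22 to 31 on the other 6 arrays.

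miR-376c was measured in 1 animal. Its 4 probes read 26.8, 32.4, 34.8 and 40.0 units on wild-type mouse 1, and -3.18 to 1.94 units on the other 6 arrays. Every spot of all 4 probes was well above background on wild-type mouse 1 and none was on any other array. Of 611 mouse microRNAs, miR-376c was the 1 that read over 20 units on a single array and under 6 units on all others. Its nearest relatives did not share this. miR-376a read -1.01, miR-376b read -1.74 and the passenger strand miR-376c* read -0.94 units on wild-type mouse 1. In the authors' deposited table miR-376c was 57 on wild-type mouse 1 and 20 on every other array.

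**Figure D3:**
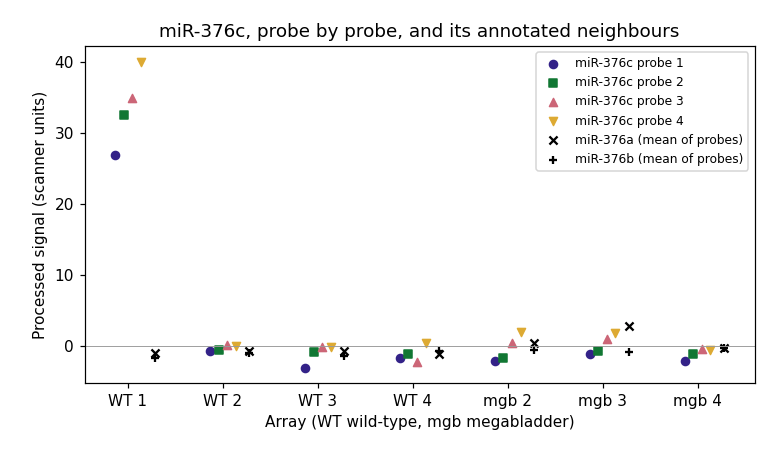
Signal in scanner units of the 4 miR-376c probes on each array, with the mean signal of miR-376a and miR-376b. The 4 probes lie between 26.8 and 40.0 units on wild-type mouse 1 and near 0 on all other arrays.

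The array of megabladder mouse 3 carried a raised group of cluster microRNAs. There 20 of 45 members (44.4%) had their highest signal of the 7 arrays, where 10.8% of all 611 mouse microRNAs did. Among microRNAs never detected, the shares were 18 of 40 members (45%) and 25 of 330 others (7.58%). A lead of more than 1 unit over every other array was held by 9 of those 40 members and 3 of those 330 others, and with the detected miR-127 and miR-136 by 11 members. Counted over all 45 members, detected ones included, and over the 330 others, it was held by 11 and 8 on scaled signals. With the brightest probe the counts were 14 and 10, and with spot median minus local background 21 and 48. On the other arrays such a lead was held by 1 member (miR-376c on wild-type mouse 1) and by 2 on megabladder mouse 4 (miR-494 and miR-667). That of miR-667 came from 1 of its 4 probes, at 13.5 units with 40% of spots well above background, while its other 3 probes read 1.22 to 2.92 units there. This grouping was seen in the values and concerns 1 animal, so it has no test. The nearest member inside the 1-unit limit was miR-337-3p with a lead of 1.42 units, and the nearest outside was miR-382 with 0.92 units.

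**Figure D4:**
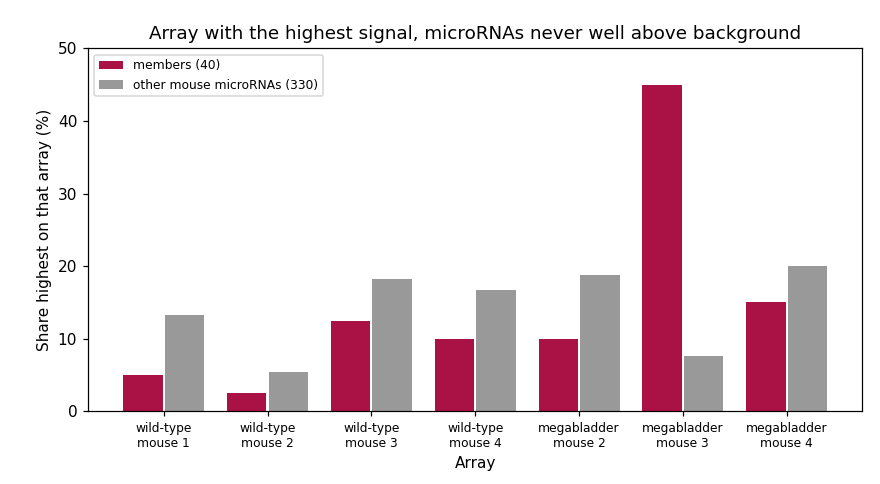
Share of microRNAs whose signal was highest on each array. It covers the 40 members and the 330 other mouse microRNAs that met the detection rule on no array. Some of these members had part of a probe's spots well above background on megabladder mouse 3, such as 40% for miR-379. Megabladder mouse 3 holds 45% of the members and 7.58% of the others.

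Between Meg3 and Rian the raised microRNAs were miR-127, miR-434-3p, miR-136 and miR-337-3p. miR-127, which can cleave the Rtl1 messenger RNA, read 3.02, 2.87, 1.94 and 0.702 units in wild-type mice 1 to 4 and 4.54, 11.4 and 2.03 units in megabladder mice 2 to 4. Its probe A_54_P2288 alone read 18.1 units on megabladder mouse 3 and 2.01 to 6.14 units elsewhere, with all 10 spots well above background there. miR-434-3p read 1.79, 2.14, 2.16 and 0.426 units in wild-type and 3.77, 8.55 and 2.80 units in megabladder mice. Both microRNAs were lowest in wild-type mouse 4, and megabladder mouse 3 was more than 4 units above the next array. The opposite arm miR-434-5p stayed at -1.53 to -0.34 units on all arrays.

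miR-136, another of the microRNAs opposite Rtl1, read 0.923, 2.10, 1.97 and 0.187 units in wild-type and 2.75, 7.52 and 2.27 units in megabladder mice. On megabladder mouse 3, 50% of the spots of its brighter probe were well above background, and none were elsewhere. miR-337-3p read 0.936, 0.983, -0.11 and 0.487 units in wild-type and 1.88, 3.29 and 1.43 units in megabladder mice. In the stretch from Meg3 to Rian 6 of 10 members were highest on megabladder mouse 3. At Rian 0 of 2 were: miR-341 and miR-370 were higher on other arrays.

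From miR-379 to miR-410, 14 of 33 members were highest on megabladder mouse 3. miR-379, the first microRNA of that stretch, read 0.161, 0.852, -0.62 and -0.89 units in wild-type and 2.09, 6.95 and 0.178 units in megabladder mice. miR-410, which closes it, read -0.36, -1.10, -1.27 and -0.27 units in wild-type and 0.492, 3.25 and -0.35 units in megabladder mice. Both ends of the stretch were thus highest on the same array. miR-154 read 1.13 to 1.59 units in wild-type mice and 2.18, 5.71 and 1.62 units in megabladder mice 2 to 4.

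miR-329 read 1.52 to 4.01 units in wild-type mice and 2.63, 6.63 and 2.56 units in megabladder mice 2 to 4. The remaining leaders were dimmer: on megabladder mouse 3 miR-300 read 3.94, miR-376a read 2.80 and miR-411 read 1.03 units. miR-376a belongs to a family whose seed can be edited from A to inosine in tissue. Its relative miR-376b read -0.88 units there, inside its range of -1.74 to -0.32 units on the other arrays. The 2 probes of miR-376b differed there: 1 was at its highest of the 7 arrays (0.697 units) and the other at its lowest (-2.45 units). The 11 leaders were chosen by the mean over their probes on that array, and 21 of their 23 probes were highest there. In the authors' deposited table miR-127, miR-136, miR-329, miR-379 and miR-434-3p stood at 32, 27, 24, 28 and 26 on megabladder mouse 3 and at 20 on the other 6 arrays.

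**Figure D5:**
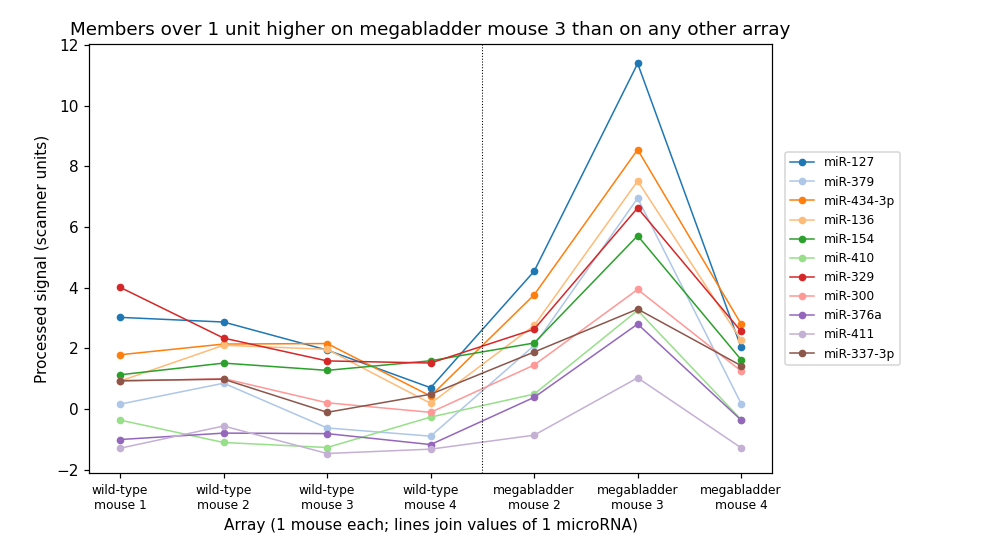
Processed signal in scanner units of the 11 members that read more than 1 unit higher on megabladder mouse 3 than on any other array. Each line joins the 7 values of 1 microRNA, and its peak on megabladder mouse 3 runs from 1.03 units (miR-411) to 11.4 units (miR-127).

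Not all of the cluster moved with that array. miR-134 read -1.43 units on megabladder mouse 3 and -1.58 to -0.58 units elsewhere. Of 32 further array microRNAs from genes between Dlk1 and Dio3, 3 (9.38%) were highest on megabladder mouse 3 (miR-299*, miR-376b* and miR-654-3p). Over all 611 mouse microRNAs that share was 10.8%. The count of 20 members was 18 on scaled signals, 22 after subtracting each array's negative control mean and 24 with the brightest probe. Among the never detected others the shares were then 8.79%, 13.9% and 11.5%, against 7.58% in the main setting. With the spot median minus local background the count of members was 34 of 45 (75.6%), and 59.7% of the never detected others were then highest there too. Negative control spots on megabladder mouse 3 had a mean of 0.549 units, inside the range of the other arrays, and a 99th percentile of 6.28 units, the highest of the 7. Among marker lists, pancreas stood out there: summed signal was 3.97 units on megabladder mouse 3 and -2.62 to -0.47 units elsewhere. That came from miR-375, at 9.69 units on megabladder mouse 3 and 0.357 to 3.87 units elsewhere, while miR-216a and miR-217 lay below 0 on all arrays. The neuronal list summed to 19.0 units on megabladder mouse 3, to less in the other megabladder mice (13.4 units at the lowest) and to more in every wild-type mouse (up to 41.5 units). Its defining miR-124 lay below 0 on all arrays, as did miR-137, miR-138 and miR-153. By contrast, miR-128 was detected on all 7 arrays and miR-219 on 6. Outside megabladder mouse 3 they read 11.1 to 20.8 and 8.77 to 20.7 units. On megabladder mouse 3 miR-128 was at its lowest and miR-219 read 9.42 units. miR-9, never detected, read 5.05 units there and 4.05 to 5.42 units in wild-type mice. In megabladder mice 2 and 4 miR-9 read 0.790 and 0.434 units. The 1 neuronal marker highest on megabladder mouse 3 was miR-129-5p, also never detected. It read 0.536 units there and -1.38 to -0.154 units elsewhere. The part of miR-375 and of the control spots in the raised signals was not tested.

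Between genotypes, unscaled signals of 12 of 45 members (26.7%) were higher in all 3 megabladder mice than in all 4 wild-type mice, where 5.4% of all 611 microRNAs were. The 12 included miR-434-3p, miR-136, miR-154, miR-300, miR-376a, miR-337-3p and both miR-377 and miR-382. After subtracting each array's negative control mean 0 of 45 members were so ordered (0.818% of all microRNAs). With spot median minus local background it was also 0 of 45 (0.164% of all microRNAs). On scaled signals the count was 12 of 45, where 13.9% of all microRNAs were. Without megabladder mouse 3 it was 17 of 45 on unscaled signals, where 11.9% of all were. The opposite order, all megabladder below all wild-type, was found for 1 member, miR-487b, and for 15.7% of all microRNAs.

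Over the list, median differences between the genotype means were below 1 unit. The megabladder mean was higher for 36 of 45 members (80%) on unscaled signals, and for 63.6% of the 330 never detected others. The median difference was 0.61 units for members, 0.17 units for those others and -0.03 units for all microRNAs. With the negative control mean subtracted, the megabladder mean was higher for 30 of 45 members (66.7%) and for 33.6% of those others. The medians, in the same order, were 0.25, -0.19 and -0.39 units. On scaled signals it was higher for 29 of 45 members (64.4%) and for 39.4% of those others. There the medians were 0.48, -0.17 and 0.10 units. Single members differed by more. The mean of miR-127 was 2.13 ± 1.07 units (SD, n = 4) in wild-type and 5.99 ± 4.85 units (SD, n = 3) in megabladder mice, and its groups overlapped.

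Tested over all 611 microRNAs on log2 of the unscaled signal plus 16, with no filter on dim probes, no member had an adjusted p under 0.05 in limma, where 22 of 611 passed (3.6%), all of them lower in megabladder kidneys. At an unadjusted p under 0.05, 8 members were higher, where 3.44% of all microRNAs were. In the other direction 1 member was lower, where 19.1% of all were. The added 16 units understate changes of such dim signals. The lower one was miR-487b, at 3.95, 3.75, 5.29 and 4.53 units in wild-type mice 1 to 4 and 2.58, 2.34 and 2.56 units in megabladder mice 2 to 4. Its unscaled groups did not overlap, nor did the arrays' scaling factors, which were lower in megabladder mice. The difference of miR-487b was -0.14 (SE 0.04, 95% interval -0.22 to -0.05, adjusted p = 0.0746 in limma). The largest difference among the 8 higher ones was that of miR-434-3p, 0.24 (SE 0.09, interval 0.02 to 0.47, adjusted p = 0.198 in limma), and it held the raised value of megabladder mouse 3.

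The dimmest members gave no measurable signal. miR-299 read -2.86 to -1.79 units, miR-540-3p read -2.63 to -1.43 units and miR-341 read -2.53 to -1.38 units over the 7 arrays, all below every array's negative control mean. miR-409-3p, among the 10 brightest members, ranged from 0.448 to 1.98 units (wild-type) and from 1.81 to 2.23 units (megabladder), also not well above background. Of the 43 members that could be matched in the authors' deposited table, 33 stood at the floor of 20 on all 7 arrays.

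Outside the 45 names, 2 of the 32 further microRNAs from this region were detected. miR-1906, which has a second gene of that name elsewhere, read 167, 159, 175 and 132 units in wild-type mice 1 to 4 and 112, 128 and 114 units in megabladder mice 2 to 4, and was detected on all 7 arrays. Its unscaled groups did not overlap, nor did the arrays' scaling factors. miR-485*, the passenger strand of the member miR-485, read 8.82, 10.4, -1.43 and -0.29 units in wild-type mice 1 to 4 and 7.78, 9.84 and 7.12 units in megabladder mice 2 to 4. The low values belonged to wild-type mice 3 and 4, the arrays that stood apart on the first principal component. miR-485 itself was never well above background.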

How the data were processed

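Whole-kidney RNA of 7 mice was read on 1-colour arrays, 1 per mouse, on 1 slide. Per the file headers, the authors made spot intensity values in Agilent Feature Extraction 10.7.3.1, which the submitters' processing notes name as well. The deposited intensity of a spot is background-subtracted and not scaled between arrays. The authors' deposited value table holds whole-number intensity values with a shared floor of 20. Its scale, centring and method are not given in the sources used here. Its names after a break in alphabetical order fit the signal of the name before, so only the 526 names before the break were used. In the range before it 228 of 228 names above the floor fit their own signal. The break was placed where such fits before and after it were most numerous, so this count is no separate check.

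Control spots and outlier spots (3.45% to 3.77% per array) were left out. No spot was saturated. Spots of a probe and probes of a microRNA were averaged. For the genotype test, signals were scaled by the 75th percentile over 285 mouse probes detected on every array, floored at 11.8 units (for each array the 1st percentile of detected probes, then the median) and put on a log2 scale. MicroRNAs with a probe detected on at least 3 arrays entered limma 3.58.1 (R 4.3.3, lmFit and eBayes), with Benjamini-Hochberg adjustment and a threshold of 0.05. Dim members were compared unscaled. The fit was tested on simulated data. Alternatives covered detection, scaling, signal, background (normexp, offset 50, on median spot signals), filter, floor, block and single arrays. The number of arrays limits the precision.

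Members, lists and tests were chosen with earlier results of these data known. Named members were all detected ones, the 10 brightest, the 3 dimmest and miR-127, miR-134, miR-379 and miR-410, and detected non-members of the region. Other names, among them miR-300, miR-337-3p, miR-376a, miR-411 and miR-375, were chosen after their values were seen. Median differences between pairs of arrays were at least 4.71 standard errors, so no array repeated another.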

Additional observations from a re-analysis of the deposited data

Results flagged for a closer look

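Among 23 values tested for a far sample within the 4 wild-type arrays, 2 stood out, and chance alone marks about 1 in 20 such groups. miR-376c read 33.5 units on wild-type mouse 1, and the nearest other wild-type array read -0.32 units. The number of detected members was 2 on wild-type mouse 1 and 1 on each of the other wild-type arrays. The added member was miR-376c, so both flags rest on the same signal. A count that is equal on all arrays but 1 is always marked by this rule.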

How the results depend on the processing

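The count of 5 detected members was 11 with any spot, 10 by the software's own call and 21 with the weaker flag for signal above local background, under which 5 were detected on every array. It was 3 to 5 leaving out each array, with 3 without megabladder mouse 3. The difference for miR-494 kept its positive direction under 21 of 23 alternatives and never passed the threshold (adjusted p 0.198 to 0.996, limma). It was -0.12 with scaling by all mouse probes, -0.011 unscaled, and 0.12 to 0.99 leaving out each array. The 15 calls over all microRNAs became 69 (1 higher, 68 lower) unscaled, 7 with viral probes in the scaling, 4 with all probes of a microRNA, 2 without the filter on dim probes, 2 with log2 of scaled signal plus 16, and 1 on the authors' values. They were 0 with scaling by all probes, quantile normalization, a floor of 1 unit, total gene signal and normexp background, where limma's unadjusted p was under 0.05 for 96, 45, 31, 24 and 46 microRNAs. Leaving out each array gave 0 to 21 calls. Without wild-type mouse 3 or megabladder mouse 2 there were 0 (unadjusted 29 and 30), without wild-type mouse 2 or 4 there were 2, without megabladder mouse 4 there were 7, and without wild-type mice 3 and 4 together 1. The cause was not tested. The member signal relative to other microRNAs was -2.60 units with the brightest probe. It was 0.50 units for all members, detected ones included, against other microRNAs that were never detected. The members highest on megabladder mouse 3 were 34 with spot median minus local background, as were 59.7% of the never detected others.

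Deviations of mice with the same number in both genotypes correlated at r = -0.19, 0.00053 and 0.349 for numbers 2, 3 and 4, which did not meet the rule of over 0.1 in every pair, so they were not treated as pairs. With a replicate block over mice 2 to 4 there were 29 calls, against 19 for the same mice without the block, and miR-494 differed by 0.59 in both.

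Low signal limited the comparison: 40 members did not meet the detection rule on any array, and 1 member entered the genotype test.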
